A study of Homo sapiens with 8 samples.

Results

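The clustered protocadherin genes are 53 protein-coding genes on chromosome 5 whose symbols start with PCDHA, PCDHB or PCDHG, taken from the GENCODE annotation of the hg38 genome, out of 19617 protein-coding genes in all. There were 15 alpha, 16 beta and 22 gamma genes, all on the plus strand. They were read in 8 ATAC-seq peak lists, 1 per library, from HEK293T cells, a human embryonic kidney line with the large T antigen of SV40. ATAC-seq marks open chromatin as places where the transposase Tn5 can cut and tag DNA. By the labels, 4 libraries came from cells with an H2A lentivector and 4 from cells with an H2A(E92K) lentivector, called H2A and E92K below, with no treatment in either group. All 8 share the HEK293T background, and each group is 1 named line. The E92K change puts a lysine in place of a glutamate of the acidic patch, a surface of the nucleosome that many chromatin proteins contact. The labels do not say which promoter drives the histone, how much of it was made beside the cells' own H2A, or whether replicates were separate cultures, so a p-value reflects no more than the scatter among these 8 samples, which may be technical.

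Clustered protocadherins are cadherin-like proteins of the cell surface, best known in neurons, where the particular set that a cell makes gives its branches an identity. Each alpha and gamma gene is a variable first exon with its own promoter, spliced to 3 constant exons that its cluster shares, while a beta gene is complete in a large exon of its own. In neurons most of these promoters are chosen at random, cell by cell, whereas the C-type genes at the 3′ end of the alpha and gamma clusters follow other rules. Choice depends on DNA methylation, on the looping protein CTCF with cohesin, and on distal enhancers. Most of the promoters carry a conserved element with the core letters CGCT just upstream of the start site.

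A gene was called open in a library if a peak of that list touched the stretch within 1000 bp of a start site (TSS) of the gene, and the covered length is the number of bases of that stretch under peaks. A gene with no peak had none past the q-value threshold of its list, which does not show closed chromatin. The lists held 55527 to 62044 peaks. The genome-wide background behind their p-values, a measure of relative depth, was 2.23 to 2.93 fragments. In H2A replicates 1 to 4 it was 2.71, 2.52, 2.53 and 2.93, and in E92K replicates 1 to 4 it was 2.41, 2.68, 2.23 and 2.26. E92K replicates 1, 3 and 4 were thus below every H2A library. The part of depth in differences between the groups was not tested. The shortest list was that of E92K replicate 4. Promoters of genes known to be active in HEK293 cells or embryonic kidney were open in all 8 libraries for 13 of 14 listed genes, PAX8 being open in none. Of 13 marker genes of other cell types, 9 were open in none, 2 in 1 E92K library each (PTPRC and APOA1) and 2 in all 8, the myelin gene MBP and the water channel gene AQP4.

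Promoters of genes with and without a peak are printed first, because base composition and the shared element were read from them. They run from 250 bases before to 50 bases after the start site, come from RefSeq on hg38 and are given for the most recurrent and strongest gene of each cluster and for the nearest gene with no peak that has an entry in that table. In the alpha pair capitals mark CpG dinucleotides, and in the beta and gamma pairs they mark the shared word around CGCT.
PCDHAC1, chr5:140926049-140926348, plus strand: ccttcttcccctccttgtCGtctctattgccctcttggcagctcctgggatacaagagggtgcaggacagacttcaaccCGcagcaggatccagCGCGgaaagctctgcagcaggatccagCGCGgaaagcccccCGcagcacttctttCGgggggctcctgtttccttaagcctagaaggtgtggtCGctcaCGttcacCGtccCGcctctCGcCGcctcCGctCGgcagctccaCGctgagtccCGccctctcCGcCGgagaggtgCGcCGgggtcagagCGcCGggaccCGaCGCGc
PCDHAC2, chr5:140966226-140966525, plus strand: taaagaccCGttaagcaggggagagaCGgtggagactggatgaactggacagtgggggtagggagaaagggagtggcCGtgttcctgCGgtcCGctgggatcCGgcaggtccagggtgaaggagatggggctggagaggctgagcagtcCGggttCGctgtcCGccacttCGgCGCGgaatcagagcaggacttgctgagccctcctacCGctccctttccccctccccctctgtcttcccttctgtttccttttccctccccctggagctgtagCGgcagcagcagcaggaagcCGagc
PCDHB2, chr5:141094365-141094664, plus strand: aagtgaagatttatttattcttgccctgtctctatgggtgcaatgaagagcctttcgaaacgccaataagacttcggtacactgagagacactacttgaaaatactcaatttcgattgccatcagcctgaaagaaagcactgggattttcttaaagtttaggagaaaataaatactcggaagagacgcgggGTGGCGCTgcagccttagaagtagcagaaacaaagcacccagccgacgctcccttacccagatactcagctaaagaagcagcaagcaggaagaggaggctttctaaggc
PCDHB4, chr5:141121568-141121867, plus strand: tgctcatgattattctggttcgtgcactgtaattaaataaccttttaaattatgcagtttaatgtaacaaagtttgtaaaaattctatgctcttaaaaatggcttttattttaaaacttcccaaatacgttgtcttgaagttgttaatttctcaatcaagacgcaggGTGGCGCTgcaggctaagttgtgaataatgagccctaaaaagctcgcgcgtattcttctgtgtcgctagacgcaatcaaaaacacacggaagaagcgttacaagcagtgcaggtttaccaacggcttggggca
PCDHGC3, chr5:141475716-141476015, plus strand: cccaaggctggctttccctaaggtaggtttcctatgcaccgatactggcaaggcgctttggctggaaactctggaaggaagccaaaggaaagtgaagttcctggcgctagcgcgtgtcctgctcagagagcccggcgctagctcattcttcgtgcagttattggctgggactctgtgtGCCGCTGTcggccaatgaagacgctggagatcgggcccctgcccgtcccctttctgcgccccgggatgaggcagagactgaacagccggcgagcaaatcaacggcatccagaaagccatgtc
PCDHGA8, chr5:141392383-141392682, plus strand: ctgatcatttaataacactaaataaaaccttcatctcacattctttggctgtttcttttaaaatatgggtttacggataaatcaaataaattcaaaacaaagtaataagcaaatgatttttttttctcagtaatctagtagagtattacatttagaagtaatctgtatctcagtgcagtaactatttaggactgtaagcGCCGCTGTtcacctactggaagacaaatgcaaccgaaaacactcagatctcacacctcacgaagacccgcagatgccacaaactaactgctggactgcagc
PCDHAC1 and PCDHGC3 were open in all 8 libraries and PCDHB2 in 4, while PCDHAC2, PCDHB4 and PCDHGA8 were open in none. In the alpha pair PCDHAC1 has 27 CpG and PCDHAC2 has 15, beside a median of 22 over all coding promoters. The beta pair goes the other way, with 10 in PCDHB2 and 12 in PCDHB4. In the gamma pair PCDHGC3, a C-type gene, has 18 and PCDHGA8, a gamma A gene, has 6.

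Few of the clustered promoters were open throughout. In all 8 libraries 7 of 53 genes (13.2%) had a promoter peak, against 68.0% of all protein-coding genes. Another 19 were open in 1 to 7 libraries, a range that held 6.34% of all genes, and 27 (50.9%) in none, against 25.6% of all genes. The recurrent genes were PCDHA11 and PCDHAC1 in the alpha cluster and PCDHGA1, PCDHGA7, PCDHGA11, PCDHGC3 and PCDHGC4 in the gamma cluster. No beta gene was among them. Of 12 non-clustered protocadherin genes, each with a promoter of its own elsewhere, 9 were open in all 8 libraries, PCDH8 in 7, and PCDH11X and PCDH12 in none.

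**Figure D1:**
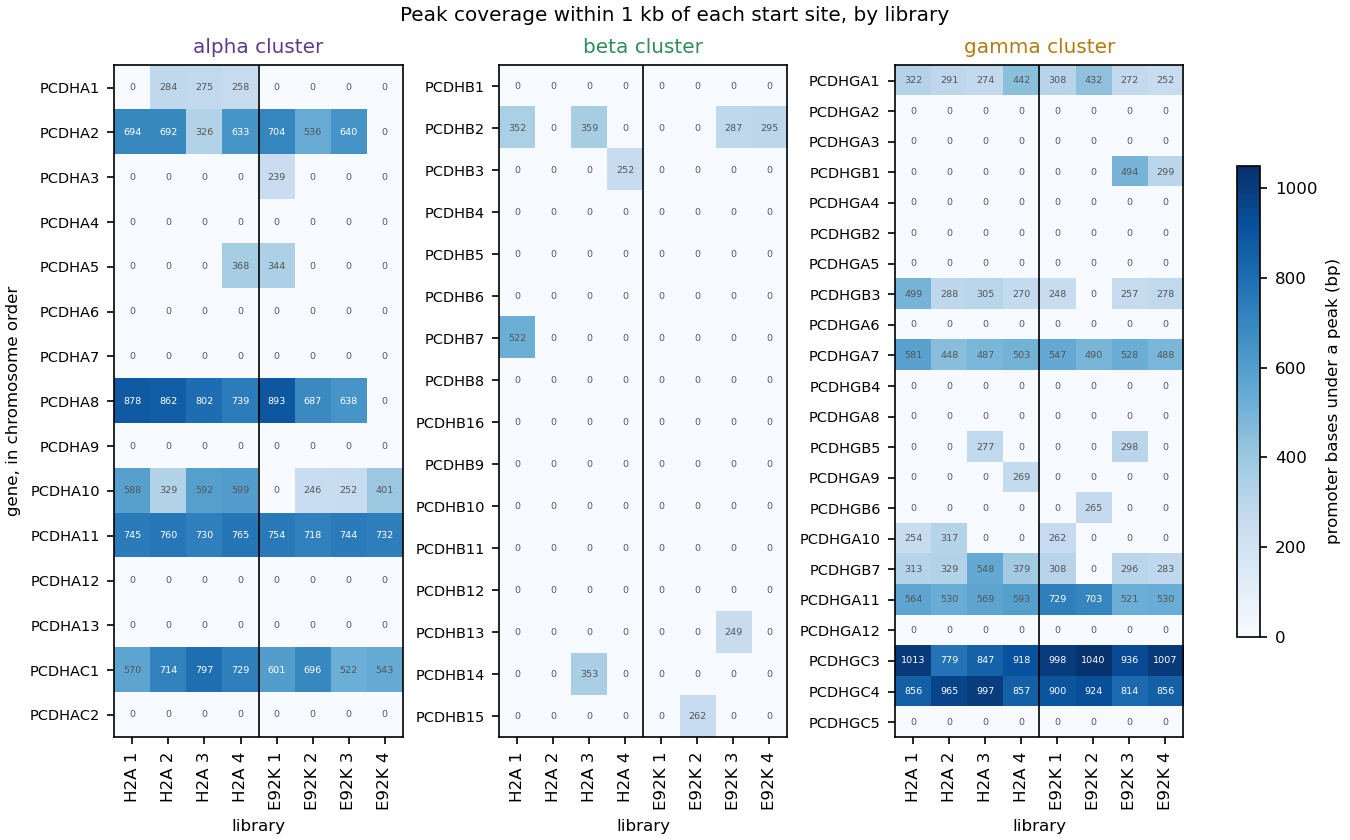
Heat map of the covered length in bp within 1000 bp of the start sites, with 1 row per gene in chromosome order, 1 column per library and a vertical line between the H2A and E92K libraries. Rows with a value in every column are the 7 genes open in all 8 libraries, of which 2 are alpha, 0 beta and 5 gamma, and the beta panel is nearly empty.

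By number of genes the gamma cluster had the most open promoters in each library and the beta cluster the fewest. The number of open gamma genes was 8 in every H2A library and 8, 6, 9 and 8 in E92K replicates 1 to 4. The number of open alpha genes was 5, 6, 6 and 7 in H2A and 6, 5, 5 and 3 in E92K replicates 1 to 4. The number of open beta genes was 2, 0, 2 and 1 in H2A and 0, 1, 2 and 1 in E92K. The clusters differ in size, and as a share of its genes alpha was above gamma in 5 of 8 libraries and gamma above alpha in 3. The share open ran from 20% to 46.7% in alpha, from 27.3% to 40.9% in gamma and from 0% to 12.5% in beta, which was below both others in all 8 libraries. The shares were not tested, because genes of a cluster share their neighbourhood. By type, 3 of 5 C-type genes were open in all 8 libraries and the other two, PCDHAC2 and PCDHGC5, in none. Of the 32 other alpha and gamma genes, 4 were open in all 8, 13 in 1 to 7 and 15 in none. Gamma A genes were open in all 8 in 3 of 12 cases and gamma B genes in 0 of 7, although 5 of those 7 were open in at least 1 library.

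Peaks covered more of the gamma cluster than of the alpha and beta clusters. From the first start site to the last gene end, they lay over 2.27% to 2.66% of the 182.5 kb gamma cluster in the H2A libraries and over 2.3% to 2.52% in the E92K libraries. In the 226.2 kb alpha cluster the range was 1.54% to 1.8% in H2A and 0.741% to 1.56% in E92K libraries, and in the 198.0 kb beta cluster 0.32% to 0.631% and 0.191% to 0.588%. Over chromosomes 1 to 22 and X peaks covered 1.24% to 1.45%. The flanks of 200 kb on either side, which hold housekeeping genes such as HARS1 and HDAC3, were covered over 4.06% to 5.34% of their length. The beta cluster was thus below the genome's share in every library, the gamma cluster above it in every library, and the flanks above both.

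PCDHGC3 had the strongest promoter of the 3 clusters. This C-type gene starts at position 141475966 of chromosome 5, and its covered length was 1013, 779, 847 and 918 bp in H2A replicates 1 to 4 and 998, 1040, 936 and 1007 bp in E92K replicates 1 to 4. The fold enrichment of its peak over background, the authors' own value for each peak, which serves only as a description within each list, was 10.74 to 14.43. By p-value it stood between the 90.6th and the 95.5th percentile of its lists, and its summits lay at -32 to 9 bp from the start site, negative values being upstream. The groups overlapped. Its C-type neighbour PCDHGC4, known for its part in the survival of inhibitory neurons, starts at 141485030 and was covered over 856, 965, 997 and 857 bp in H2A and 900, 924, 814 and 856 bp in E92K libraries. Its summits lay upstream, at -217 to -64 bp from the start site. PCDHGC5, the last gene of the cluster, starts at 141489081 and had no peak in any list.

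Of the other gamma genes, PCDHGA11 and PCDHGA7 were the next most covered among those open in all 8 libraries. The covered length of PCDHGA11 (start site 141421051) was 564, 530, 569 and 593 bp in H2A and 729, 703, 521 and 530 bp in E92K libraries. E92K replicates 1 and 2 were above every H2A library, and the other two were at or below the lowest of them. PCDHGA7 (start site 141382742) was covered over 581, 448, 487 and 503 bp in H2A and 547, 490, 528 and 488 bp in E92K libraries, so the groups overlapped. PCDHGA1, the first gene of the cluster (start site 141330514), was present in all lists with low rank. Its covered length was 322, 291, 274 and 442 bp in H2A and 308, 432, 272 and 252 bp in E92K libraries, its fold was 2.84 to 4.38, and its percentile ran from 4.7 to 38.6.

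In the alpha cluster PCDHAC1 and PCDHA11 stood out. PCDHAC1, a C-type gene with its start site at 140926299, was covered over 570, 714, 797 and 729 bp in H2A and 601, 696, 522 and 543 bp in E92K libraries, with a fold of 8.4 to 11.49 and a percentile of 69.2 to 80.2. Its summits lay 265 to 350 bp downstream of the start site, inside the variable exon. PCDHA11 (start site 140868957) was the only other alpha gene with a peak in every list, and its covered length varied little, at 745, 760, 730 and 765 bp in H2A and 754, 718, 744 and 732 bp in E92K libraries. PCDHAC2, the remaining alpha C-type gene, known for the tiling of serotonergic axons, had no peak (start site 140966476).

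**Figure D2:**
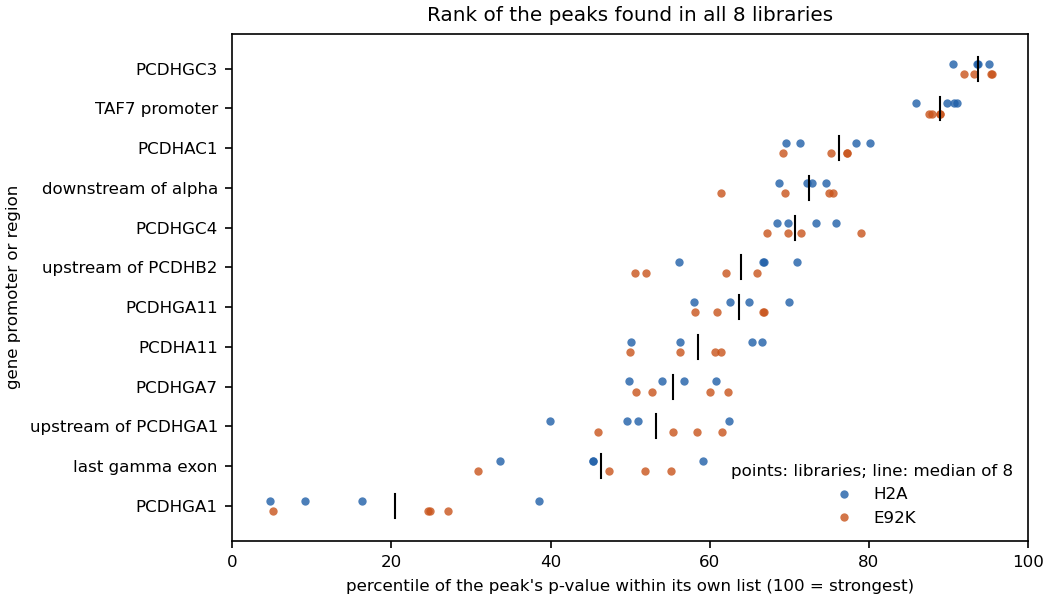
Percentile of the peak's p-value within its own list, from 0 to 100 with 100 the strongest, for the 7 promoters open in all 8 libraries and the 5 other regions inside the clusters with a peak in all 8; points are libraries, coloured by group, and the vertical line is the median of 8. PCDHGC3 is highest, between 90.6 and 95.5, PCDHGA1 lowest, between 4.7 and 38.6, and the H2A and E92K points overlap in every row.

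Peaks at promoters open in fewer libraries were weaker. The 56 peaks at the 7 recurrent genes had a median percentile of 65.95 and a median pileup of 42 fragments at the summit. The 51 peaks at the 11 genes open in 2 to 7 libraries had a median percentile of 28.2 and a median pileup of 16. The 8 peaks at genes open in 1 library had medians of 13.6 and 12.5. How often a promoter was called and how strong its peak was are both read from the same lists, so these medians are a description.

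The partly open alpha genes were PCDHA1, PCDHA2, PCDHA3, PCDHA5, PCDHA8 and PCDHA10. PCDHA8 (start site 140841187) was covered over 878, 862, 802 and 739 bp in H2A and 893, 687 and 638 bp in E92K replicates 1 to 3, with no peak in E92K replicate 4. Its summits lay 103 to 616 bp downstream of the start site. PCDHA2 (start site 140794852) showed the same gap, with 694, 692, 326 and 633 bp in H2A, 704, 536 and 640 bp in E92K replicates 1 to 3, and no peak in replicate 4. E92K replicate 4 is the shortest list and had the fewest open promoters over all genes, 13779 against 13881 to 14017 in the others. With every list cut to its 55527 peaks, the mean covered length of PCDHA8 stayed at 820.2 bp in H2A and 554.5 bp in E92K libraries. That of PCDHA10 stayed at 527.0 bp in H2A and went from 224.8 to 161.8 bp in E92K libraries. Clustered genes open in none then numbered 30 instead of 27. PCDHA2 was not followed in that setting. The part of list length in the 2 missing alpha peaks was not tested. PCDHA10 (start site 140855897) was covered over 588, 329, 592 and 599 bp in H2A and 246, 252 and 401 bp in E92K replicates 2 to 4, with no peak in replicate 1. PCDHA1, the first gene of the alpha cluster (start site 140786140), was open in H2A replicates 2 to 4, over 284, 275 and 258 bp, and in no E92K library. PCDHA5 was open in H2A replicate 4 over 368 bp and in E92K replicate 1 over 344 bp, and PCDHA3 in E92K replicate 1 alone over 239 bp. PCDHA4, PCDHA6, PCDHA7, PCDHA9, PCDHA12, PCDHA13 and PCDHAC2 had no peak in any list.

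The partly open gamma genes were mostly of the B type. PCDHGB3 (start site 141370242) was covered over 499, 288, 305 and 270 bp in H2A and 248, 257 and 278 bp in E92K replicates 1, 3 and 4, with no peak in replicate 2. PCDHGB7 (start site 141417677) was covered over 313, 329, 548 and 379 bp in H2A libraries. In the same E92K replicates it was covered over 308, 296 and 283 bp, again with no peak in replicate 2. The list of E92K replicate 2 was the longest of its group, with 61850 peaks. PCDHGB1 was open in E92K replicates 3 and 4 alone, over 494 and 299 bp. PCDHGB5 was open in H2A replicate 3 over 277 bp and E92K replicate 3 over 298 bp. PCDHGA10 was open in H2A replicates 1 and 2, over 254 and 317 bp, and in E92K replicate 1 over 262 bp. PCDHGA9 was open in H2A replicate 4 alone (269 bp) and PCDHGB6 in E92K replicate 2 alone (265 bp). PCDHGA2, PCDHGA3, PCDHGA4, PCDHGA5, PCDHGA6, PCDHGA8, PCDHGA12, PCDHGB2, PCDHGB4 and PCDHGC5 had no peak. Of these, 6 lie in the 5′ part of the cluster, between PCDHGA1 and PCDHGA7, and PCDHGB1 and PCDHGB3 are the only genes there with a peak.

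Beta promoters were seen in few lists and with low rank. PCDHB2 (start site 141094615) was open in 4 libraries, over 352 and 359 bp in H2A replicates 1 and 3 and over 287 and 295 bp in E92K replicates 3 and 4. The other 5 open beta genes had a peak in 1 library each. These were PCDHB7 in H2A replicate 1 (522 bp), PCDHB3 in H2A replicate 4 (252 bp), PCDHB14 in H2A replicate 3 (353 bp), PCDHB13 in E92K replicate 3 (249 bp) and PCDHB15 in E92K replicate 2 (262 bp). Their folds ran from 2.99 to 4.81, and none of the 6 genes reached a percentile above 32.1. PCDHB1, PCDHB4, PCDHB5, PCDHB6, PCDHB8, PCDHB9, PCDHB10, PCDHB11, PCDHB12 and PCDHB16 had no peak in any list.

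**Figure D3:**
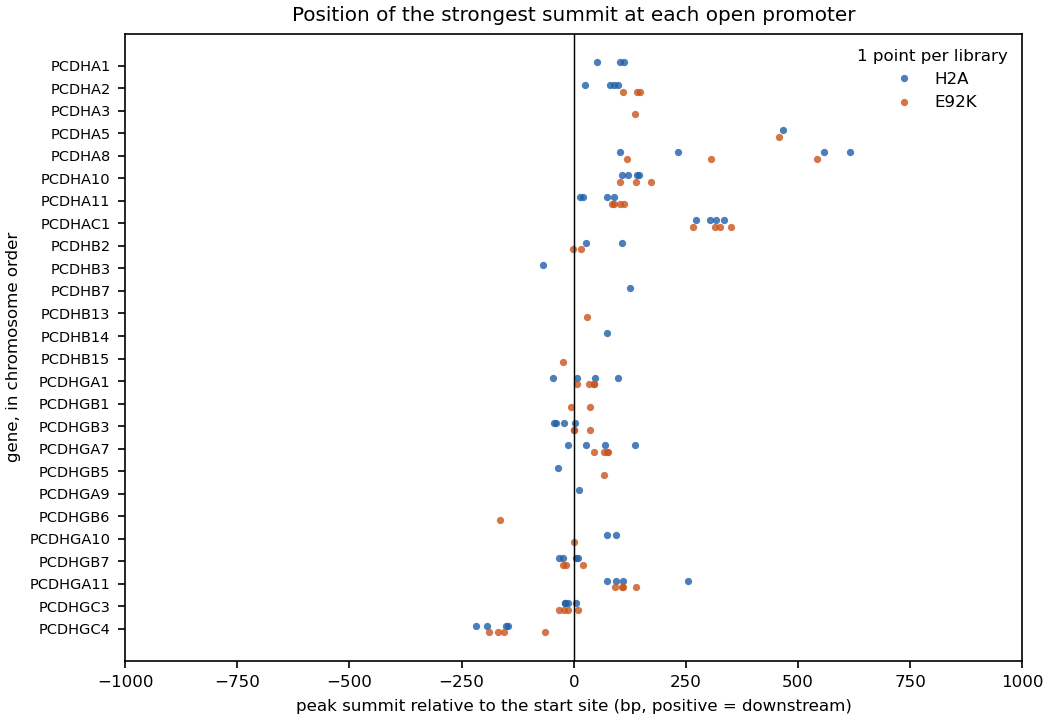
Position of the strongest summit relative to the start site, in bp with downstream positive, for each of the 26 open genes in chromosome order, with 1 point per library coloured by group. Most points lie within 250 bp of the start site, PCDHAC1 is shifted downstream to between 265 and 350 bp, PCDHGC4 upstream to between -217 and -64 bp, and PCDHA8 and PCDHA5 reach 616 and 467 bp downstream.

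The E92K and H2A libraries did not separate at any clustered promoter by the presence of a peak. None of the 53 genes was open in all 4 libraries of a group and in 0 of the other, a pattern that 6 of 19617 genes (0.0306%) showed. Fisher's exact test on presence, adjusted by Benjamini-Hochberg over all genes, passed 0 genes of the genome, and before adjustment p was under 0.05 for 6. The nearest cases among the clustered genes were PCDHA1, open in 3 H2A and 0 E92K libraries, and PCDHGB1, open in 0 H2A and 2 E92K libraries. Without H2A replicate 1, the H2A library that lacks the peak, PCDHA1 was open in all 3 remaining H2A libraries and in 0 of 4 E92K libraries.

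By covered length 1 of 26 open clustered genes had groups that did not overlap, against 557 of 14588 genes with a peak (3.82%). This was PCDHGB7, a gamma B gene, with 392.2 bp ± 107.6 in H2A and 221.8 bp ± 148.2 in E92K libraries (SD, n = 4 each), a difference of -170.5 bp. The lowest H2A value was 313 bp and the highest E92K value 308 bp, so the gap between the groups was narrow. An exact two-sided permutation test gave p = 0.0286, the smallest that 70 assignments allow, and an adjusted p of 0.748 over all 14588 genes. H2A was the longer group at 442 of the 557 genes (3.03% of all tested) and E92K at 115 (0.788%), so PCDHGB7 followed the more frequent direction. In the exact permutation test with Benjamini-Hochberg adjustment 0 of the 26 genes, and 0 of all genes, had an adjusted p under 0.05. Without E92K replicate 2, which lacks the peak, the PCDHGB7 difference was -96.6 bp (exact permutation p = 0.143), and leaving out any H2A library gave an exact permutation p of 0.0571 to 0.2.

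PCDHA10 and PCDHGB3 came next. The covered length of PCDHA10 was 527 bp ± 132.1 in H2A and 224.8 bp ± 166.1 in E92K libraries (SD, n = 4 each, exact permutation p = 0.0571, adjusted p = 0.845). That of PCDHGB3 was 340.5 bp ± 106.6 in H2A and 195.8 bp ± 131.1 in E92K libraries (SD, n = 4 each, exact permutation p = 0.0571, adjusted p = 0.845). In each, 1 E92K library had no peak, and without it the difference went from -302.2 to -227.3 bp at PCDHA10 and from -144.8 to -79.5 bp at PCDHGB3. With only peaks at a q-value of 1e-05 or less, PCDHA10 had no E92K peak and a difference of -149.8 bp (exact permutation p = 1). PCDHA8 differed by -265.8 bp (exact permutation p = 0.171), and by -80.9 bp without E92K replicate 4. Over the 26 open genes the mean was longer in H2A for 17 (65.4%), with a median difference of -38.8 bp, beside 62.1% and -18.5 bp over all genes with a peak. The recurrent genes PCDHA11, PCDHGA7, PCDHGC3 and PCDHGC4 had overlapping groups.

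**Figure D4:**
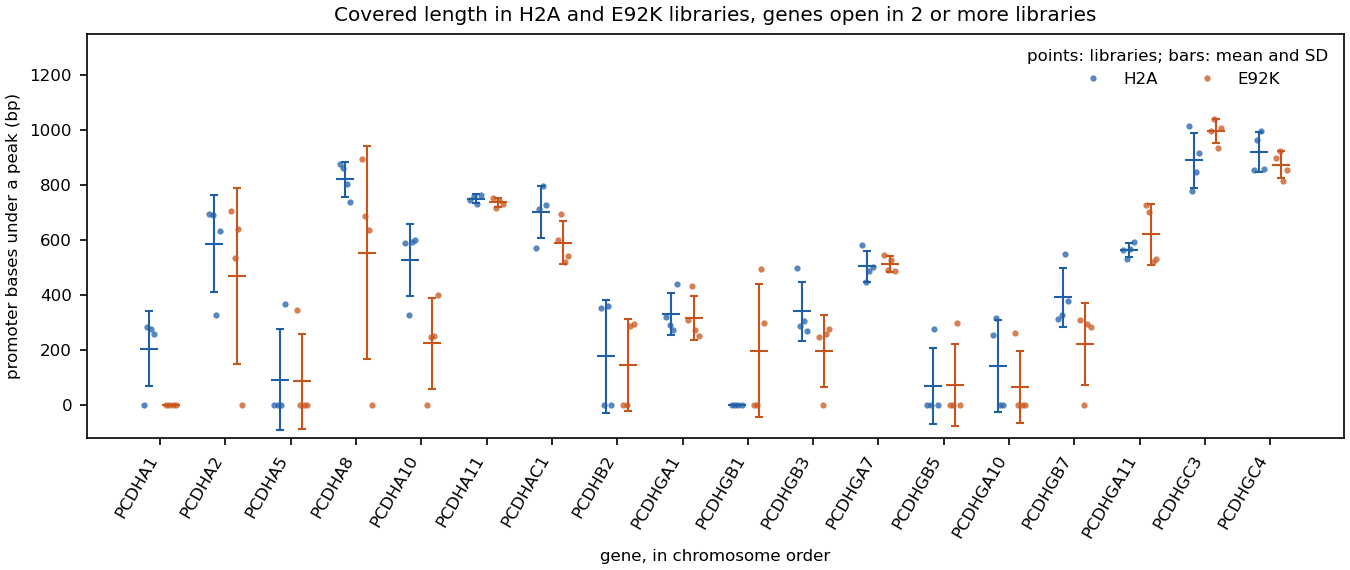
Covered length in bp for the 18 genes open in 2 or more libraries, in chromosome order; points are the 4 libraries of each group, horizontal marks the means and bars 1 SD. The groups overlap at every gene except PCDHGB7, where the lowest H2A value, 313 bp, is just above the highest E92K value, 308 bp, and PCDHA2, PCDHA8, PCDHA10, PCDHGB3 and PCDHGB7 each have 1 E92K library at 0.

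Beyond the promoters, the clusters held a handful of recurrent distal regions. The 8 lists merged into 96872 regions over the genome, of which 38.1% had a peak in all 8 libraries. Of these regions 58 lay in the clusters and 200 kb either side. Inside the clusters 12 of 33 regions (36.4%) had a peak in all 8, and in the flanks 18 of 25 (72.0%). Of the 33 regions 26 touched a clustered protocadherin promoter. The other 7 were the promoter of TAF7, a subunit gene of the general transcription factor TFIID that lies between the beta and gamma clusters, and 6 distal regions, 4 of them present in all 8 libraries.

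**Figure D5:**
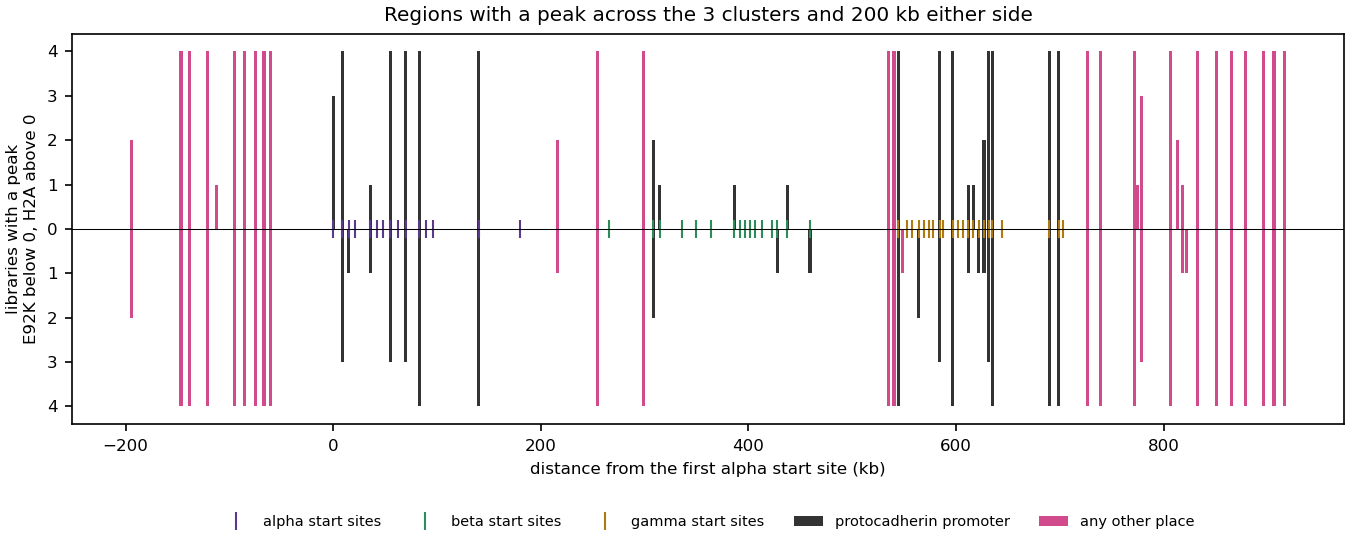
Number of H2A libraries (upward, 0 to 4) and E92K libraries (downward, 0 to 4) with a peak at each merged region, along the distance in kb from the first alpha start site; black bars are regions at protocadherin promoters, pink bars all other regions, and ticks at 0 are start sites coloured by cluster. The flanks hold mostly full bars, the beta cluster short ones, and pink full bars mark the region 28.5 kb downstream of the alpha genes, the region before PCDHB2, the regions before PCDHGA1 and the last gamma exon.

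The strongest distal region lay downstream of the alpha genes. It spans chr5:141040322-141041429, starts 28.5 kb beyond the end of the alpha cluster, before the first beta gene, and is within 1 kb of the start of an unnamed noncoding RNA. An enhancer of the alpha genes known as HS5-1 has been described downstream of the constant exons, with CTCF sites around an element bound by the repressor REST, and the files name no enhancers. The covered length of the region was 699, 519, 1092 and 516 bp in H2A and 504, 542, 525 and 429 bp in E92K libraries. The fold was 8.14 to 12.23 and the percentile 61.4 to 75.5. H2A replicate 3 was far longer than the others, and the groups overlapped. The 300 bases at its right end and the 30 bases around its other CTCF match are printed because the peaks of all 8 libraries covered the matches in the first and 1 library's the match in the second. Capitals mark the CTCF core, searched on both strands by its consensus, and the left (TTCAGCACC) and right (GGACAGC) parts of the REST element.
Right end of the region, chr5:141041130-141041429, minus strand: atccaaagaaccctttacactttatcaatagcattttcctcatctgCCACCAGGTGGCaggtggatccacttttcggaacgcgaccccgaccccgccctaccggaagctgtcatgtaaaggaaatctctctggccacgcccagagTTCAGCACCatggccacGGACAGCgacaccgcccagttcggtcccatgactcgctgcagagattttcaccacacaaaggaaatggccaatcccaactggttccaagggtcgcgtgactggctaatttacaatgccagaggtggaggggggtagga
Left end of the region, chr5:141040354-141040383, minus strand: gatctttaaCCAGCAGAGGGCgagtcgact
Both CTCF cores read on the minus strand, at chr5:141041372-141041383 and chr5:141040363-141040374. In windows of the same length, 1108 bp, around the centres of all 96872 regions, 5.94% held a CTCF core and 0.065% held 2 or more. The left part of the REST element was found in 1.41% of these windows, and both parts on 1 strand with starts at most 20 bases apart in 0.124%. A match describes letters and not binding.

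The remaining distal regions inside the clusters were weaker or less recurrent. A region at chr5:141084178-141085000, upstream of PCDHB2 and 298.5 kb from the first alpha start site, was covered over 375, 724, 407 and 382 bp in H2A and 379, 456, 628 and 383 bp in E92K libraries, with a fold of 7.03 to 10.79. A region at chr5:141325946-141326649, upstream of PCDHGA1 and at the start of an unnamed noncoding RNA, was covered over 369, 680, 519 and 704 bp in H2A and 369, 508, 506 and 543 bp in E92K libraries. The groups overlapped at both. A region at chr5:141001638-141002326, in the intron between the second and the third constant exon of the alpha genes, was present in H2A replicates 2 and 3 and E92K replicate 3, with a fold of 3.96 to 4.02. Another enhancer of the alpha cluster, HS7, has been described in that intron. A region in an annotated exon of PCDHGA1, downstream of its promoter, was present in E92K replicate 4 alone.

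At the 3′ end of the gamma cluster a region in the last constant exon, chr5:141512112-141512777, had a peak in all 8 libraries. Its covered length was 358, 310, 666 and 302 bp in H2A and 379, 431, 294 and 277 bp in E92K libraries, with a fold of 3.48 to 5.01. It held a CTCF core on the minus strand that peaks of all 8 libraries covered. The next regions with a core in the right flank were named after their contents were seen. They lay just beyond the gamma end, at an internal promoter of the actin regulator gene DIAPH1 (all 8 libraries), and 51.4 kb beyond it, in a DIAPH1 intron (6 libraries). The 30 bases around each core are printed with the core in capitals, to be set beside those of the alpha exons.
Last gamma exon, chr5:141512494-141512523, minus strand: aggctatggCCACTAGGGGGCgcactgggg
DIAPH1 promoter, chr5:141524885-141524914, minus strand: gatgctcagCCAGCAGGTGGCgctgggagc
DIAPH1 intron, chr5:141564386-141564415, minus strand: tgctttcagCCACCAGATGGCacatggatc
All 3 cores read on the minus strand, like those downstream of the alpha genes. Farther out, 152.2 and 179.4 kb beyond the gamma end, 2 regions present in all 8 libraries held a core on the plus strand.

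In the flanks the 10 strongest regions present in all 8 libraries were promoters of other genes. They belonged to IK and NDUFA2, HARS1 and HARS2, HDAC3 and RELL2, WDR55, DIAPH1, ZMAT2, TMCO6 and the vault RNA genes VTRNA1-1, VTRNA1-2 and VTRNA1-3. The vault RNA genes are the nearest to the alpha cluster, with regions at -75.1, -66.6 and -60.1 kb from the first alpha start site. Of the 58 regions, 0 were present in 4 libraries of a group and 0 of the other, against 0.323% of all regions, and Fisher's exact test on presence, adjusted by Benjamini-Hochberg, passed 0 of 96872 regions. By covered length 2 of the 58 regions had groups that did not overlap, against 2.66% of all regions. The first was the PCDHGB7 promoter. The other was the promoter shared by HDAC3, a histone deacetylase gene, and RELL2, covered over 1920, 1801, 1842 and 1814 bp in H2A and 1748, 1768, 1711 and 1669 bp in E92K libraries.

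The sequences of the promoters differ from those of other genes in base composition. Of the 53 genes 47 had an entry in the RefSeq promoter table, and PCDHA3, PCDHA13, PCDHB6, PCDHB11, PCDHGA12 and PCDHGC5 did not. The median number of CpG dinucleotides in 300 bases was 7 in these 47 and 22 in 15277 coding promoters, and the median GC content was 39.7% against 63.0%. The 7 genes open in all 8 libraries had a median of 12 CpG, the 18 open in 1 to 7 libraries 7.5 and the 22 open in none 6.5. The ranges overlapped widely, from 4 to 27, from 3 to 16 and from 2 to 15. PCDHGA1 had 4 CpG and was open in all 8 libraries, while PCDHAC2 had 15 and was open in none. The highest numbers belonged to the C-type genes, with 27 in PCDHAC1, 23 in PCDHGC4 and 18 in PCDHGC3. The other genes open in all 8 libraries had 12 (PCDHGA11), 7 (PCDHA11), 6 (PCDHGA7) and 4 (PCDHGA1). The median of those open in none was 6.5. The fixed consensus of the CTCF core was found in 0 of the 47 promoters and in 0.53% of all, so the 2 shares are close. A CTCF site spelled otherwise would be missed by this search.

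The shared element had several spellings, of which GTCGCTGT was found in both the alpha and the gamma cluster. The word GTGGCGCT was present in 13 of 14 beta promoters, all but that of PCDHB1, of which 6 were open in at least 1 library and 7 in none. In the gamma cluster GCCGCTGT was present in 11 of 20 promoters, of which 4 were open in all 8 libraries, 5 in some and 2 in none. Another spelling, GTCGCTGT, was present in 6 gamma promoters, those of PCDHGA2, PCDHGA3, PCDHGA4, PCDHGA5, PCDHGA6 and PCDHGB2, and all 6 were open in none. The same spelling was present in 5 alpha promoters, of PCDHA1, PCDHA2, PCDHA6, PCDHA8 and PCDHA10, of which 4 were open in some libraries and 1 in none. The split of the gamma words was noticed in these data, and the 6 genes all lie in the 5′ part of the cluster, but PCDHGB1, which has the first word and was open in 2 libraries, and PCDHGB3, which has neither word and was open in 7, lie among them. The part of the word in these values was not tested. Neighbours with either word are printed with the word in capitals.
PCDHGA6, chr5:141373837-141373868, plus strand: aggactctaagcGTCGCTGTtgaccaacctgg
PCDHGA7, chr5:141382651-141382682, plus strand: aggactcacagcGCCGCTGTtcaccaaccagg
PCDHA8, chr5:140841132-140841163, plus strand: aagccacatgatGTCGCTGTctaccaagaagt
PCDHGA6 was open in no library, PCDHGA7 in 8 and PCDHA8 in 7. The words were absent from 12 promoters, among them PCDHA11, PCDHAC1 and PCDHGA11, which were open in all 8 libraries.

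Alpha variable exons carry a further CTCF site downstream of the start site, and these data bear on it because several alpha peaks reach it. In each of the 13 alpha variable genes the closest fit to the core was taken within a fixed stretch downstream of the start site. Only the plus strand was read there, so every gene has a position by construction. The positions lay 569 to 621 bp downstream. All 12 letters of the core consensus matched in PCDHA4, PCDHA7, PCDHA9 and PCDHA13, and all 4 genes were open in no library. Of all 13 alpha variable genes 6 (46.2%) were open in none. In the other 9 genes 8 to 11 letters matched. Of those with 11 letters, PCDHA6 and PCDHA12 were open in no library and PCDHA5 in 2. PCDHA8 and PCDHA10, also with 11, were open in 7 libraries and PCDHA11 in 8. Peaks covered the position in PCDHA11 in 8 libraries, in PCDHA8 in 7, in PCDHA2 in 5 and in PCDHA5 in 1. Over stretches within 1000 bp of a start site a complete core was present in 4 of 53 clustered genes (7.55%) and in 1.45% of 19614 genes. Exons with a complete core and with peaks over the position are printed with the 12 letters in capitals.
PCDHA4, chr5:140807634-140807665, plus strand: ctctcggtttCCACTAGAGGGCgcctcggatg
PCDHA9, chr5:140848942-140848973, plus strand: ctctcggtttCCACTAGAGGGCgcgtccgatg
PCDHA8, chr5:140841768-140841799, plus strand: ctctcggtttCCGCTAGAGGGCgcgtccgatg
PCDHA11, chr5:140869550-140869581, plus strand: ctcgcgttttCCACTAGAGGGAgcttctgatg
PCDHA8 and PCDHA11 each match 11 of 12 letters. In a search of both strands the complete cores of the 4 exons read on the plus strand. Those in the region downstream of the alpha genes and in the last gamma exon read on the minus strand.

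Genes for factors known to act on these clusters were open in every library. All 18 of a list of regulators, with CTCF, the cohesin genes RAD21, SMC1A and SMC3, the DNA methyltransferase genes DNMT1, DNMT3A and DNMT3B, the silencing factor gene SMCHD1 and REST, had a promoter peak in all 8 libraries. So did all 9 genes of signalling partners, among them the kinase genes PTK2 and PTK2B and the actin regulators WASF1 and CYFIP1. Over all protein-coding genes the share with a peak in all 8 libraries was 68.0%. None of the 18 regulators, 9 partners or 12 non-clustered protocadherins had groups without overlap in covered length, against 3.82% of all genes, and their median differences were -16.8, -32.8 and -6.2 bp.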

How the data were processed

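ATAC-seq had been run on 8 HEK293T libraries, and GEO's labels put 4 in each group. Each library had its own list of peaks, called per sample. Reads were aligned to hg38 per the labels. Not given in the sources used here are the aligner, the peak caller and the treatment of duplicates. Caller settings change which weak peaks appear. Each deposited list holds a score, a fold (ratio) over local background, and −log10 p and q values, all as the authors gave them, with no q-value above 0.01. Peaks were the distinct intervals of a list, and the summit with the smallest p stood for each. The pileup n was recovered from the fold (n + 1)/(b + 1) and the Poisson p for at least 99.84% of summits, within 0.002 of the −log10 p.

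Start sites came from basic protein-coding transcripts of GENCODE release 44. Mean covered lengths were compared by an exact permutation test, two-sided, over 70 assignments, presence by Fisher's exact test, both with Benjamini-Hochberg adjustment over all genes, and scripts were tested on simulated data (Python 3.11.15, numpy 2.4.6, pandas 2.3.3, scipy 1.17.1). Promoter width, q threshold, list length, minimum overlap, canonical start sites, each library left out and the replicate block were the alternatives. The members and gene lists were chosen with earlier results of these data known. Every clustered gene with a peak is named, as are distal regions inside the clusters present in all 8 libraries, up to 10 flank regions by lowest percentile, and any whose groups did not overlap.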

Additional observations from a re-analysis of the deposited data

Results flagged for a closer look

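In each group of 4 libraries the gap between the highest or lowest value and its neighbour was set against the whole range (Dixon's 95% critical value for 4 values). Over 74 sets of 4 values, 23 single values stood apart, with some libraries recurring. Chance gives about 1 in 20 sets, but a gene with a peak in 1 of 4 libraries stands apart by construction. That was so, in covered length, for PCDHA3 (239 bp, E92K replicate 1), PCDHA5 (368 bp, H2A replicate 4, and 344 bp, E92K replicate 1), PCDHB3 (252 bp, H2A replicate 4), PCDHB7 (522 bp, H2A replicate 1) and PCDHB13 (249 bp, E92K replicate 3). It was also so for PCDHB14 (353 bp, H2A replicate 3), PCDHB15 (262 bp, E92K replicate 2), PCDHGB5 (277 bp, H2A replicate 3, and 298 bp, E92K replicate 3), PCDHGA9 (269 bp, H2A replicate 4), PCDHGB6 (265 bp, E92K replicate 2) and PCDHGA10 (262 bp, E92K replicate 1). Among distal regions it held for the intron between alpha constant exons (385 bp, E92K replicate 3) and the exonic region of PCDHGA1 (262 bp, E92K replicate 4).

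A missing peak set 1 library apart at PCDHA1 (0 bp, H2A replicate 1), PCDHGB3 (0 bp, E92K replicate 2) and PCDHGB7 (0 bp, E92K replicate 2). With a peak in all 4 libraries, H2A replicate 3 was low at PCDHA2 (326 bp), H2A replicate 2 was low at PCDHA10 (329 bp) and H2A replicate 1 was high at PCDHGB3 (499 bp). H2A replicate 2 was high at the region upstream of PCDHB2 (724 bp) and H2A replicate 3 at the last gamma exon (666 bp).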

How the results depend on the processing

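Changing the promoter width, the q threshold (1e-05), the list length, the overlap asked for or the start sites left every count of open and of separated clustered genes within 1.5 times its value. Genes open in all libraries numbered 6 with the q threshold, where 33 instead of 27 were open in none. Leaving out 1 library at a time gave 7 to 9 genes open in all libraries, 2 to 4 in alpha (4 without E92K replicate 4, the shortest list), 5 to 7 in gamma and 0 in beta, and 27 to 29 open in none. Genes open throughout in 1 group alone then numbered 0 to 1 (PCDHA1, without H2A replicate 1), and regions 0 to 1. Genes with groups that did not overlap in covered length numbered 1 to 4, always with PCDHGB7. The highest number, without H2A replicate 1, added PCDHA1, PCDHAC1 and PCDHGC3. With the replicate block, pairing libraries by number, 2 genes moved the same way in every pair, PCDHGB7 and PCDHA10, and 0 passed adjustment in any setting. The smallest p of that block is 0.125, which PCDHGB7 had, so it cannot pass. Deviations of same-numbered libraries from their group means correlated over genes at r = -0.162, -0.03, -0.013 and -0.153. For libraries with different numbers r ran from -0.128 to 0.196. No pairing by number was seen in these correlations, which do not show how the samples were prepared. Among differences of single genes none reversed, but with the q threshold that of PCDHA10 went from -302.2 to -149.8 bp and that of PCDHA1 from -204.2 to -135.5 bp, and with 500 bp promoters that of PCDHA8 from -265.8 to -174.5 bp. With 4 libraries a group no adjusted p could pass unless many genes separated together. A peak under the q threshold of a shallow list is not detectable there, and how depth bears on the weak peaks was not tested.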
